A study of Mus musculus with 20 samples.

Results

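Transcript levels in CD8 T cells stimulated with antigen, B7-1 and IL-12 were compared between 72 h and 48 h of culture. The comparison used 4 of the 20 arrays of the series, chosen by their titles: the 1 array of cells given Ag-B7 and IL-12 for 72 h, and the 3 biological replicates of the same culture at 48 h. All 8251 genes with a single symbol on the array were examined, and a gene was counted as outside the range when its 72 h value lay above or below all 3 values at 48 h. The series followed naive cells into culture with Ag-B7 alone or with a cytokine or trichostatin A, over 24, 48 and 72 h, to separate the programmes of cells given 2 or 3 signals. The cells were CD8 T lymphocytes of OT-1 TCR transgenic C57Bl6 mice aged 6 to 8 weeks, whose receptor recognises the H-2Kb:SINNFEKL complex, and they were isolated as CD44lo lymph node cells by negative selection. Every culture contained human rIL-2, and Ag-B7 stands for the H-2Kb:SINNFEKL complex and B7-1 coated on latex microspheres. Murine rIL-12 was present in the 4 cultures compared. Beside them, Ag-B7 alone (1 array at 72 h, 4 at 48 h) and Ag-B7 with universal type I IFN (1 array at 72 h, 3 at 48 h) were set over the same interval. Ag-B7 and IL-2 were in every culture after 0 h, so the length of their action and the time in culture cannot be told apart.

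Antigen is the first signal of T cell activation, costimulation by B7-1 the second, and an inflammatory cytokine such as IL-12 the third. IL-12 acts through its receptor chains and the transcription factor STAT4 and favours interferon-gamma production and cytolytic function in CD8 T cells. A naive T cell that is activated leaves quiescence, builds ribosomes, replicates its DNA and divides in rapid succession, and it lowers genes of the resting state such as the IL-7 receptor chain.

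The 3 arrays at 48 h correlated with each other at 0.948 to 0.959 across genes, and the 72 h array correlated with them at 0.867 to 0.882. The median signal was 341 on the 72 h array, against 247, 272 and 292 on the 48 h arrays, and for actin the 3' over 5' ratio was 1.04 against 1.06 to 1.07. The naive arrays differed more, with actin ratios of 1.13, 2.06 and 1.61. Their spike-in controls had a mean log2 signal of 13.4, 14.9 and 14.5, against 12.4 on the 72 h array. On the 48 h arrays with IL-12 it was 12.4, 13.2 and 12.4, so the second of them stood apart. Naive levels below are as deposited, and their comparison with 72 h was not repeated with spike-in scaling. The CD8 identity markers were present at both times, with Cd8a at 8484 on the 72 h array and 7361, 6459 and 6147 at 48 h. Of 16 myeloid and dendritic markers on the array, 8 lay above the range and 1 below, and their summed signal was 6738 at 72 h, against 3001, 3053 and 3458 at 48 h. The 1 marker called among them was Ctss, a lysosomal protease, with 2321 at 72 h, against 947, 854 and 771 at 48 h, and its call was lost without the third 48 h array (limma adjusted p = 0.0565). Within this list Lyz2 and Itgam were near background, at 17.6 and 25.8 on the 72 h array. The 4 myeloid and dendritic markers bright enough to be tested all lay above the range, with a median log2 difference of 1.18. The 12 B cell markers summed to 10565 at 72 h, against 5458 to 7012 at 48 h, the 10 stromal and endothelial markers to 4238, against 2200.0 to 3475, and the 4 CD4 and gamma-delta T cell markers to 684, against 246 to 558. The 3 NK cell markers summed to 62.6, against 79.8 to 183, and the 6 erythroid and platelet markers to 1199, against 888 to 1435. The 12 CD8 T cell markers summed to 123483, against 83123 to 100929, and the 8 reference genes to 185975, against 149131 to 183036. The part of other cells in the results below was not tested.

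Many genes lay outside the 48 h range at 72 h. Of the 8251 genes, 61.9% lay outside the range of the 48 h arrays, 3183 above it (38.6%) and 1921 below it (23.3%). A lone array set beside 3 others often falls outside their range, so a gene outside it had not necessarily changed. The same limit holds for list members counted outside the range below. A difference of at least 2-fold as well was seen for 698 genes above the range (8.46%) and 421 below it (5.1%). Among the 4950 brighter genes that were tested, 70.8% lay outside the range, 1992 above it (40.2%) and 1511 below it (30.5%), and 376 (7.6%) and 361 (7.29%) of them were also at least 2-fold away. For 532 of the tested genes the distance beyond the range was under 0.1 on the log2 scale, and the greatest distance was 3.08 above and -2.93 below. limma, which lent the lone 72 h array the spread of the 3 replicated groups at 48 h, called 239 genes higher (4.83%) and 478 lower (9.66%) at an adjusted p below 0.05. The verbs rose and fell below refer to these calls, differences are 72 h minus 48 h of log2(signal + 46.4) with the standard error of limma, and the median difference over tested genes was 0.11. The balance between the directions depended on the scaling, since 68 genes were called higher and 580 lower with each array centred on its median, and 46 higher and 23 lower with scaling to the spike-in controls. The median difference over all named genes was 0.13 as deposited, -0.12 with median centring and 0.34 with spike-in scaling. Among the arrays compared, the second 48 h array had the highest spike-in signal, and its part in the calls lost with that scaling was not tested. Because each array had been scaled to a common signal and the cells were measured in bulk, fewer cells expressing a gene and less RNA of it per cell cannot be told apart.

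**Figure D1:**
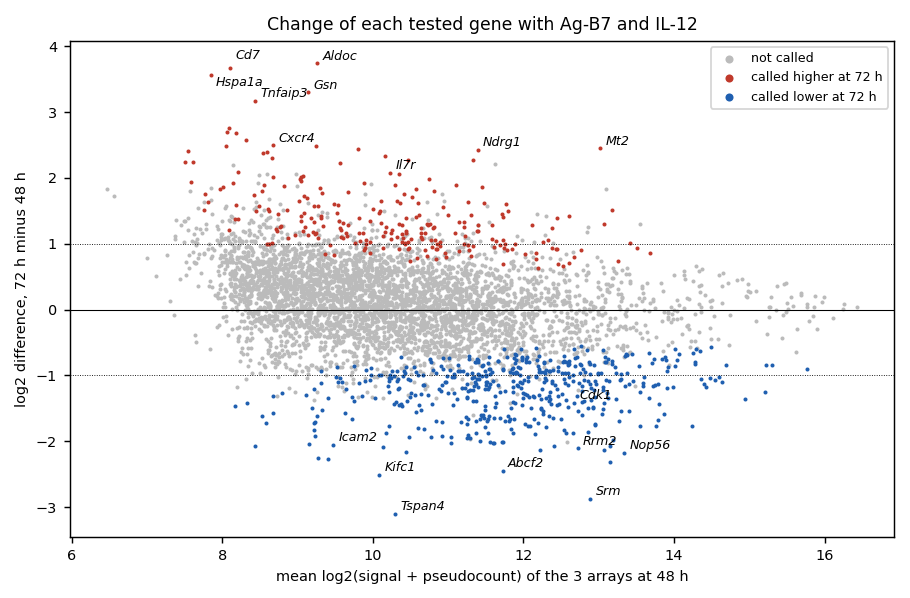
Each point is 1 of the 4950 tested genes, with the mean log2(signal + pseudocount) of the 3 arrays at 48 h on the x axis and the log2 difference, 72 h minus 48 h, on the y axis. The 239 genes called higher (red) lie mostly at low and middle levels, and the 478 called lower (blue) extend to the brightest genes; dotted lines mark 2-fold.

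Most genes that build ribosomes or belong to the MYC targets of growing cells fell. All 33 tested genes of the ribosome biogenesis and MYC target list lay below the 48 h range, 22 of them fell, and the median difference was -1.35. Over all tested genes 30.5% lay below the range and 9.66% fell. Srm, the spermidine synthase of polyamine production, had a signal of 988 at 72 h, against 7320.1, 6606 and 8811 at 48 h. Srm was 7.32-fold lower (log2 difference -2.87 ± 0.30, limma adjusted p = 0.000186). In naive cells it was 1364, 1527 and 1041, at 24 h 20024, so on the deposited scale the 72 h level was below all 3 naive arrays. The nucleolar protein Nop56, a core part of the box C/D particles that modify ribosomal RNA, was at 2249.9 at 72 h, against 11608, 9304 and 10112 at 48 h (log2 difference -2.17 ± 0.23, limma adjusted p = 0.000195). Ranbp1, a partner of the Ran GTPase in nuclear transport, gave 1917 at 72 h, against 8905, 8984 and 7855 at 48 h (4.39-fold lower). Gnl3, the nucleolar GTPase nucleostemin, gave 708, against 3802, 2290.1 and 3231 (4.09-fold lower). Myc itself was not called, with 3029.8 at 72 h, against 4777, 3073 and 4152 at 48 h, a difference of -0.37 ± 0.53. Its 72 h value lay just below the lowest 48 h array. The list's tested members outside the calls, 11 of 33, included others with a small difference, the smallest at -0.17.

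The 15 largest falls were taken from genes below the range, at least 2-fold away and brighter at 48 h than the median gene, and they also held genes outside the lists. Rrp12, an export factor of pre-ribosomes, was 4.80-fold lower, the ATP-binding protein gene Abcf2 5.44-fold, and Lsm7, a subunit of the LSm ring that binds U6 RNA, 4.96-fold. Polr2l, a small subunit shared by the nuclear RNA polymerases, was 4.22-fold lower, with 1236 at 72 h, against 5033, 5519.6 and 5549 at 48 h. Ppa1, the pyrophosphatase that removes the by-product of nucleotide polymerisation, was likewise 4.22-fold lower. Txnrd1, the cytosolic thioredoxin reductase, fell by 2.14 on the log2 scale, with 48 h arrays that spread from 2568 to 6582, and the call was lost without the first or the third of them (limma adjusted p = 0.051 and 0.0519). The nucleoside diphosphate kinase Nme1 fell by 2.16, but a dimmer probe set of it had a difference of 0.70.

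Most DNA replication genes fell as well. Of 39 tested genes for replication and nucleotide supply, 35 lay below the range and 1 above it, 28 fell and none rose, and the median difference was -1.05. As given above, 30.5% of all tested genes lay below the range and 9.66% fell. Rrm2, the small subunit of ribonucleotide reductase that makes deoxyribonucleotides, had 1519.9 at 72 h, against 7434, 5567 and 7259 at 48 h. It was 4.31-fold lower (log2 difference -2.11 ± 0.22, limma adjusted p = 0.000192). Mcm10, an initiation factor that joins the replicative helicase, had 219.7 at 72 h, against 1367, 893 and 1026 at 48 h. Cdc6, which loads that helicase at origins, had 971, against 3949, 3314 and 3805, and was 3.66-fold lower. Tk1, thymidine kinase of the salvage pathway, had 1608, against 5553, 5904 and 6561, and was 3.65-fold lower. The rule that named them fixes that the times did not overlap. All 3 naive arrays lay lower still for Rrm2, at 207, 743 and 375, and the 24 h array was at 8299, so the 72 h level stood between the naive and the 24 h level. The smaller falls in the list included the helicase subunit Mcm5 (-1.15) and the polymerase alpha catalytic subunit Pola1 (-1.26), named after their values were seen.

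E2F transcription factors act at promoters of replication genes, so the 300-base promoters of RefSeq (GRCm38.p6) were searched on both strands for TTTCCCGC and TTTGGCGC, letters known from E2F sites. One of them was present in 6 of 23 replication genes that fell and had 1 listed promoter (26.1%), in 8 of 30 tested replication genes (26.7%), in 129 of 3216 tested genes (4.0%) and in 368 of 22862 genes of the table (1.6%). Among all genes that fell the share was 22 of 348 (6.3%), among ribosome biogenesis genes that fell 4 of 17 (23.5%), and among tested mitosis genes 0 of 24. The E-box CACGTG, which MYC and its partners bind, was in 2 of 17 ribosome biogenesis genes that fell (11.8%), in 6 of the 25 tested ones (24.0%) and in 354 of 3216 tested genes (11%). A match is only a run of letters and shows no binding. The 250 bases before the start are shown for 3 replication genes with 1 listed promoter. They had the largest falls among those that held such a match there, with 1 chromosome left out of the choice. The match is in capitals and reads as its reverse complement in each. Cdc6 lies at chr11:98907901-98908150 on the plus strand, Pola1 at chrX:93632156-93632405 on the minus strand and Mcm5 at chr8:75109259-75109508 on the plus strand.
Cdc6: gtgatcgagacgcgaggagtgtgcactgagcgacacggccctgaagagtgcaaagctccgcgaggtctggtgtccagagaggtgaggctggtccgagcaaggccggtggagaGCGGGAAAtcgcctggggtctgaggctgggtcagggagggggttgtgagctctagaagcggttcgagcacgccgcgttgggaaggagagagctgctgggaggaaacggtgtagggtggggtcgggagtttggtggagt
Pola1: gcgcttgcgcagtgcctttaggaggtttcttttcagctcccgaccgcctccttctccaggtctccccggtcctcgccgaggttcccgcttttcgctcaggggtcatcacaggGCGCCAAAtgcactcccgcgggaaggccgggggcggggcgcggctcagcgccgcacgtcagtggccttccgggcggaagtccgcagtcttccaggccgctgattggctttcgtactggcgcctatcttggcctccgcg
Mcm5: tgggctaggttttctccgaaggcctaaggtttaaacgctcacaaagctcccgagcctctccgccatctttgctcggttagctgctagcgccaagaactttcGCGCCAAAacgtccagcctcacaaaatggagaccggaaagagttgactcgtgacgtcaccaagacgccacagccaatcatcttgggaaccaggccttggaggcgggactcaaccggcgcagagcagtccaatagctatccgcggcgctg

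A smaller share of the mitotic genes fell. Of 33 tested members 26 lay below the range and 1 above it, 11 fell and none rose, and the median difference was -0.60. Across all tested genes 30.5% lay below the range and 9.66% fell. Birc5, survivin, which serves the chromosomal passenger complex and blocks apoptosis, had 1622 at 72 h, against 6470.5, 5887 and 5329 at 48 h (3.55-fold lower, log2 difference -1.83 ± 0.29, limma adjusted p = 0.00152). The mitotic kinase Cdk1 had 2400.2, against 6991, 5338 and 7283, and was 2.67-fold lower. Mad2l1, of the spindle checkpoint, was 2.65-fold lower and Cdc20, an activator of the anaphase-promoting complex, 2.41-fold. Kifc1, a minus-end kinesin outside the lists, had 144 at 72 h, against 971, 1277 and 894 at 48 h, the third largest fall by the naming rule. The proliferation marker Mki67 was not called, at 3459 at 72 h, against 5687, 3579 and 4696 at 48 h, and a dimmer probe set of it had a difference of 1.31. With spike-in scaling the medians of ribosome biogenesis, replication and mitosis stayed below 0 at -1.11, -0.81 and -0.36, but only 4, 2 and 1 of their members were called lower. With all 20 arrays in the fit, 14 replication and 6 mitosis genes were called lower.

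**Figure D2:**
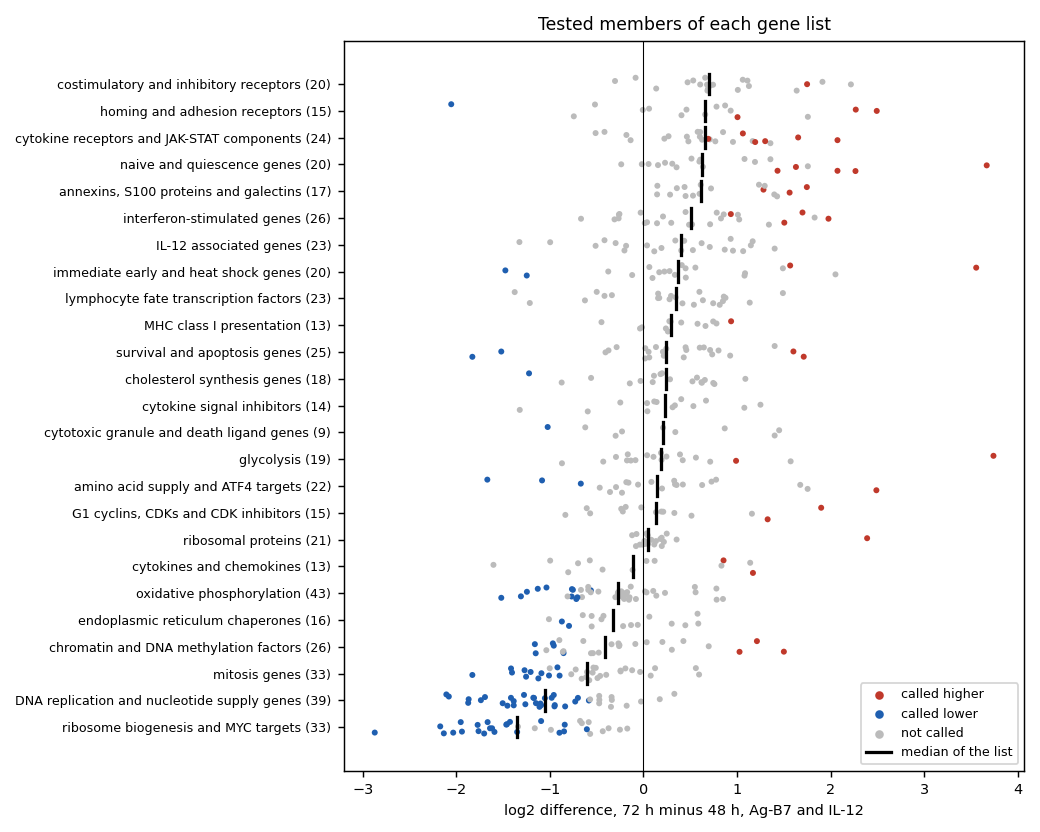
Each point is a tested member of a gene list, placed by its log2 difference, 72 h minus 48 h, with the number of tested members in brackets and a black bar at the median. Ribosome biogenesis (median -1.35), DNA replication (-1.05) and mitosis genes (-0.60) lie furthest left, with most of their members below 0; members called higher are red, members called lower blue.

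Oxidative phosphorylation, endoplasmic reticulum and chromatin genes had smaller and more mixed differences. Of 43 tested subunits of the respiratory chain and ATP synthase, 30 lay below the range and 7 above, 11 fell and none rose, with a median of -0.27. The cytochrome c gene Cycs (-1.52 ± 0.29) and the complex I subunits Ndufc1 (-1.31 ± 0.32) and Ndufa5 (-1.25 ± 0.25) fell furthest, and Cyc1 of complex III fell by 1.13, with a dimmer probe set at 0.25. Leaving out 1 of the 48 h arrays in turn left 6 to 7 genes called lower, and with spike-in scaling limma called 0, with a median of -0.017. Of 16 chaperones of the endoplasmic reticulum, Hspa5 (BiP, -0.87 ± 0.20) and Pdia6 (a disulfide isomerase, -0.80 ± 0.23) fell. Among all tested genes 9.66% fell, 4.83% rose and 30.5% lay below the range, and the chaperone count was near the first share. Of 26 chromatin factors, 3 rose and 5 fell. The histone variant gene H2az1 (-1.16 ± 0.28) and the heterochromatin protein gene Cbx5 (-1.15 ± 0.31) fell, as did Hdac2, Uhrf1 and Hmgn1, and Ezh1, a Polycomb methyltransferase found in resting cells, rose 2.83-fold with the deacetylase genes Hdac5 and Hdac7. Of 22 genes for amino acid supply and ATF4 targets, the serine hydroxymethyltransferase Shmt1 fell furthest (-1.67 ± 0.25), and the serine pathway genes Psph (-1.08 ± 0.29) and Psat1 (-0.67 ± 0.21) fell too. Of 18 cholesterol genes 1 fell, the isomerase Idi1 (-1.22 ± 0.24), no larger a share than among all tested genes. Pdia6, Psat1 and Uhrf1 were not called when any 1 of the 48 h arrays was left out (limma adjusted p = 0.0508 to 0.11), and the calls of Cbx5 without the first, Psph without the third, Hdac2 without the second or the third and Hdac5 without the first or the third were lost too (limma adjusted p = 0.057 to 0.101). The heat shock genes Hsp90aa1 (-1.25 ± 0.22) and Hsph1 (-1.48 ± 0.38) fell. Hdac2, Uhrf1, Hmgn1, Hdac7, Psph, Psat1, Hsp90aa1 and Hsph1 were named after their values were seen.

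The largest fall by the naming rule was that of Tspan4, a tetraspanin membrane protein. It had 100.3 at 72 h, against 1068, 1289 and 1301 at 48 h, and was 8.60-fold lower (log2 difference -3.10 ± 0.31, limma adjusted p = 0.000186). It was 33.4, 57.8 and 41.2 in naive cells and 1630.5 at 24 h, so the 72 h level stood nearer to the naive one. Icam2, an adhesion ligand of the integrin LFA-1, had 124 at 72 h, against 640.0, 733 and 618 at 48 h, and was 4.15-fold lower. Naive cells had 1805, 1484 and 2062, so on the deposited scale its 72 h value was below every naive and 48 h array. Gga2, a sorting adaptor of the Golgi, had 83.3, against 691, 472 and 579, and was 4.79-fold lower.

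**Figure D3:**
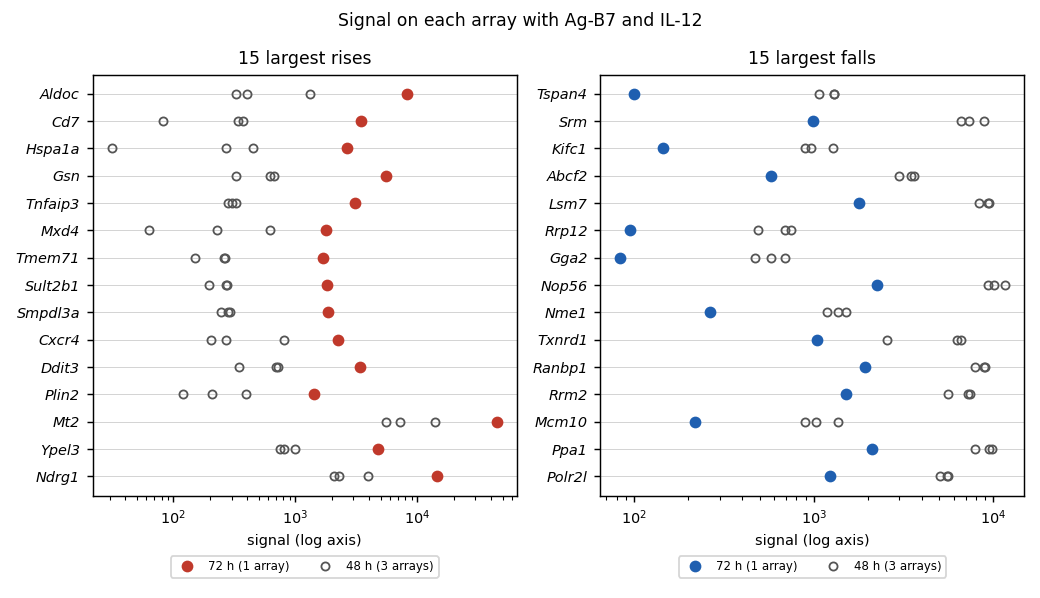
Signal on each array, on a log axis, of the 15 genes with the largest rise (left) and the 15 with the largest fall (right) by the naming rule. Filled points are the 72 h array and open points the 3 arrays at 48 h; the rule fixes that the 72 h value lies outside the 48 h values, and the 48 h arrays are spread most for Hspa1a and Mxd4.

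Part of the genes of the naive and resting state rose. Of 20 tested naive and quiescence genes, 13 lay above the range, 1 below, 5 rose and none fell, with a median of 0.62. The shares over all tested genes were 40.2% above the range and 4.83% that rose. The T cell surface protein Cd7 had 3441 at 72 h, against 373, 338 and 81.7 at 48 h, and rose 12.7-fold (log2 difference 3.67 ± 0.79, limma adjusted p = 0.00952). Il7r, through which T cells receive the survival signal of IL-7, had 4998 at 72 h, against 864, 1825 and 964 at 48 h, and rose 4.21-fold (2.07 ± 0.53, limma adjusted p = 0.0215). Both were lower at 24 and 48 h than in naive cells. Cd7 was 10323, 5172 and 6770.3 in naive cells and 255 at 24 h, and Il7r was 7715, 3934 and 6602 and 279. On the deposited scale the 72 h level of Il7r thus lay within the range of the naive arrays, and that of Cd7 below all of them. Vps37b, of the endosomal sorting machinery, rose 4.81-fold, with 6741 at 72 h, against 1753, 1445 and 1001 at 48 h. The other 2 that rose were the antiproliferative gene Btg1 (1.63 ± 0.50) and Dgka, a diacylglycerol kinase that dampens receptor signalling (1.43 ± 0.22), named after their values were seen. The call of Il7r was lost without the first or the third 48 h array (limma adjusted p = 0.0515), that of Btg1 without the second or the third (0.0865 and 0.095), and that of Vps37b without the third (0.0543). Ccr7, the receptor that guides T cells into lymph nodes, had 6499, against 2013, 3511 and 945, and was above the range but not called (limma adjusted p = 0.0693). The quiescence factor Klf2 was too dim on the stimulated arrays to be tested, at 170.3 at 72 h and 130.3, 96.5 and 113 at 48 h. Naive cells had 12461, 5071 and 6006, so on the deposited scale its 72 h level was far below all of them. At 72 h it was 1922 with Ag-B7 alone and 590 with IFNa/b. The summed B cell, myeloid, stromal and CD4 or gamma-delta T cell markers were higher at 72 h than on every 48 h array. The CD8 T cell sum was higher too, the reference gene sum lay just above the highest 48 h array, and all these values stand above. The part of other cells in these rises was not tested.

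The largest rises also held Mxd4 and Ypel3. Mxd4, a MAX partner that opposes MYC at its sites, had 1798 at 72 h, against 226, 623 and 63.3 at 48 h, and rose 6.79-fold. Its 48 h arrays differed widely, and its limma adjusted p was 0.0419. Without the first or the third of them the calls of Mxd4 and Ccng2 were lost (limma adjusted p = 0.0546 to 0.0781), and without the third that of Rb1 (0.0539). Ypel3, a growth-suppressing gene, had 4769, against 806, 999 and 749, and rose 5.40-fold with no such spread. Of 15 tested G1 cyclins, CDKs and inhibitors, 2 rose: Ccng2, an atypical cyclin of arrested cells (1.90 ± 0.52), and the retinoblastoma gene Rb1 (1.33 ± 0.34). Of 25 survival genes, Bcl2l11 (Bim, a promoter of apoptosis, 1.71 ± 0.42) and the inhibitor of apoptosis Birc2 (1.60 ± 0.27) rose, and Birc5 and Cycs, described above, fell. As 4.83% of all tested genes rose and 9.66% fell, the survival counts were near those shares. With each array centred on its median, the calls of Il7r, Vps37b, Mxd4, Ccng2 and Rb1 were lost, and 2 of the 5 naive and quiescence genes were still called.

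Receptors for homing and cytokines rose in part. Of 15 homing and adhesion genes, 3 rose and 1, Icam2, fell. In all, 4.83% of the tested genes rose, 9.66% fell and 40.2% lay above the range. Cxcr4, the receptor for CXCL12, had 2250.1 at 72 h, against 202, 813 and 271 at 48 h (5.63-fold, log2 difference 2.49 ± 0.64, limma adjusted p = 0.0217). Itgb7, the integrin chain of gut homing, had 12356, against 2199.6, 3695 and 1982 (4.82-fold). The selectin ligand Selplg rose 2.01-fold, and it was named after its values were seen. Cxcr4 was called neither without the first nor without the third replicate at 48 h (limma adjusted p = 0.0507 and 0.0515). Of 24 tested cytokine receptor and JAK-STAT genes, 19 lay above the range and 2 below, 6 rose and none fell, and the median was 0.66. Beside Il7r they included Ifngr1, the ligand-binding chain of the interferon-gamma receptor, with 3412 at 72 h, against 1571, 981 and 753 at 48 h (1.65 ± 0.45), which was not called without the third 48 h array (limma adjusted p = 0.0653). Stat5b, which carries IL-2 and IL-7 signals, had 3163, against 1524, 1172 and 1108 (1.30 ± 0.32). None of the 6 was called with each array centred on its median.

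Several of the largest rises belonged to metabolism and stress. Aldoc, an aldolase of glycolysis, had 8159.9 at 72 h, against 401, 1329 and 329 at 48 h, the largest rise by the naming rule (13.4-fold, log2 difference 3.74 ± 0.73, limma adjusted p = 0.00511). Naive cells had 66.1, 356 and 94.1 and the 24 h array 63.2, so its 72 h level was above every other array of naive or IL-12 cells. Ndrg1, a gene known to respond to low oxygen and to stress, had 14381, against 2274, 3915 and 2068 (5.37-fold). Plin2, which coats lipid droplets, rose 5.58-fold and Pdk1, a kinase that restrains pyruvate entry into mitochondria, 1.99-fold. Mt2, a metal-binding metallothionein, had 45451, against 14007, 5537 and 7282 (5.47-fold). Ddit3 (CHOP), a transcription factor of the integrated stress response, had 3363, against 346, 699 and 718 (5.62-fold). The inducible heat shock gene Hspa1a had 2659, against 268, 31.4 and 451, and rose 11.8-fold on the log2(signal + pseudocount) scale, while its near-identical neighbour Hspa1b had 2055, against 335, 289.7 and 969, and was not called. Zfp36, which promotes decay of cytokine mRNAs, rose too (1.57 ± 0.45). Its call was lost when any 1 of the 48 h arrays was left out (limma adjusted p = 0.0515 to 0.0755), and that of Plin2 without the first or the third (0.0547 and 0.0653). Probe sets of Hspa1a and Hspa1b, and of the metallothioneins, may not tell the copies apart.

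Other large rises had diverse roles. Gsn, the actin-severing protein gelsolin, had 5494 at 72 h, against 625, 663 and 329.6 at 48 h (9.83-fold, log2 difference 3.30 ± 0.44, limma adjusted p = 0.000709). Tnfaip3 (A20), an inhibitor of NF-kappaB signalling, had 3075, against 301, 279 and 323 (log2 difference 3.17 ± 0.62). The 3 values at 48 h were close together for Tnfaip3, and naive cells had 17767, 7860.0 and 10030.4, all above the 72 h value on the deposited scale. The sulfotransferase gene Sult2b1 rose 6.42-fold, Smpdl3a, a phosphodiesterase, 5.93-fold, and the membrane protein gene Tmem71 6.46-fold. Of 17 annexin, S100 and galectin genes 16 lay above the range and 3 rose, namely the actin-capping gene Capg (1.56 ± 0.23), the galectin gene Lgals4 (1.75 ± 0.39) and Ahnak (1.28 ± 0.38), a large scaffold protein named after its value was seen. Of 26 interferon-stimulated genes 14 lay above the range and 3 below, and 4 rose. Those 4 were Ifi27 (1.98 ± 0.58), the nuclear body gene Sp100 (1.70 ± 0.33), Trim30a (1.51 ± 0.34) and Samhd1 (0.93 ± 0.25), a nucleotide hydrolase named after its value was seen. A dimmer probe set of Trim30a had a difference of -0.39. Of 13 genes of class I presentation, 1 rose, the peptide transporter Tap1 (0.94 ± 0.22). Of 20 costimulatory and inhibitory receptors 16 lay above the range and 1 rose, Nt5e (CD73, which makes adenosine), with 688 at 72 h, against 127, 191 and 206 at 48 h. For comparison, 40.2% of all tested genes lay above the range and 4.83% rose. The class I and receptor calls were near the latter share. The call of Nt5e was lost when any 1 of the 48 h arrays was left out, that of Ahnak without the second or the third, of Ifi27 without the first or the third and of Samhd1 without the first or the second (limma adjusted p = 0.0515 to 0.0883). With each array centred on its median, calls were also lost for Btg1, Selplg, Plin2, Pdk1, Zfp36, Ahnak, Ifi27, Samhd1, Tap1, Il16, Ltb, Hdac5, Hdac7 and Ctss.

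The genes most tied to IL-12 and to effector function did not pass the test. Of 23 tested IL-12 associated genes, 10 lay above the range and 4 below. Over all tested genes 40.2% lay above it and 30.5% below. limma called none of the 23, and their median was 0.40, which was 0.073 with median centring. Ifng, the gene of interferon-gamma, had 3534 at 72 h, against 7015, 6161 and 8274 at 48 h, a value below all 3 that was not called (limma adjusted p = 0.428). It was 74.9, 20.3 and 32.8 in naive cells and 13398 at 24 h, so the 72 h level was still far above naive cells. Il12rb2, the signalling chain of the IL-12 receptor, had 5722 at 72 h, against 2166, 2719.9 and 2721 at 48 h, above the range and 2.25-fold (1.17 ± 0.48, limma adjusted p = 0.124). Stat4 was above the range too, at 4394, against 2678, 2287 and 1837 (0.96 ± 0.41), and so was the IL-18 receptor chain Il18r1, at 2785, against 1844, 1588 and 1635 (0.71 ± 0.56). Gzmb, the granzyme of cytotoxic granules, had 41438 at 72 h, against 41446, 53131 and 60005 at 48 h, just under the lowest of them. The perforin gene Prf1 had 1882, against 1157, 2159 and 1285, inside the range. Fasl, the death ligand, had 1722, against 721, 387 and 855, above the range with a limma adjusted p of 0.0507. It passed the threshold in 5 of the alternatives, quantile normalization among them. Gzma was too dim to be tested, at 58.3 at 72 h and 126, 30.3 and 110.5 at 48 h.

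Fate transcription factors gave no call, nor did several receptors of effector cells. Eomes, a factor of effector and memory differentiation, had 184 at 72 h, against 1091, 239.9 and 610.0 at 48 h, below the range, with 48 h arrays that spread widely. limma called none of 23 fate factors, and their median was 0.34, which was 0.036 with median centring. Bcl3, a cofactor of NF-kappaB, had 1459, against 476, 1402 and 445, only just above the highest 48 h array (1.07 ± 0.54). The inhibitory receptor Lag3 had 10876, against 3975, 8539 and 3576 (1.13 ± 0.46), and the costimulator Tnfrsf9 (4-1BB) 8286, against 3210.4, 5281 and 3259 (1.11 ± 0.57). Both lay above the range. Il2ra, the high-affinity IL-2 receptor chain, had 1196, against 2198, 1755 and 1328, below the range (-0.51 ± 0.45). Of the 9 tested cytotoxic granule genes none rose and 1, the protease Ctsc, fell (-1.02 ± 0.28), but its 2 dimmer probe sets had differences of 0.11 and 0.28. Of 13 cytokines, Il16 (1.17 ± 0.29) and Ltb (0.86 ± 0.27), which was named after its value was seen, rose. The cytotoxic and cytokine counts stand beside 4.83% of all tested genes that rose and 9.66% that fell. Ltb was not called when any 1 of the 48 h arrays was left out, and without the first or the third Ctsc was not (limma adjusted p = 0.0623 to 0.102). The remaining lists held few calls: 1 rise among 21 ribosomal proteins, Rpl22 (2.39 ± 0.58, with a second probe set at 0.10), and none among 14 cytokine signal inhibitors.

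**Figure D4:**
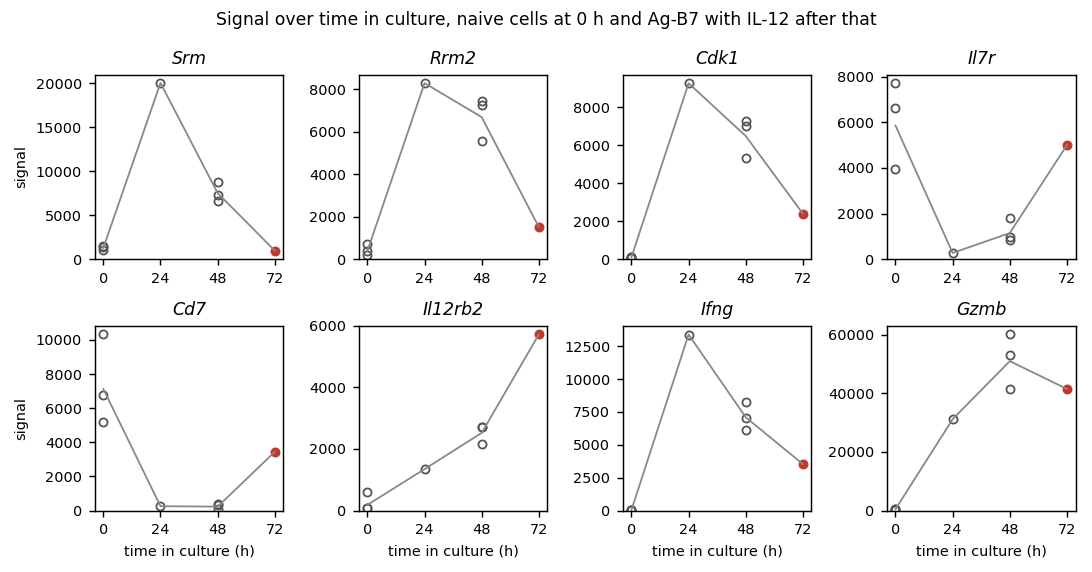
Signal against time in culture for 8 genes, with naive cells at 0 h (3 arrays), 24 h (1 array), 48 h (3 arrays) and 72 h (1 array, red) of Ag-B7 and IL-12, and a line through the group means taken on the log2(signal + pseudocount) scale. Srm, Rrm2 and Cdk1 are highest at 24 h and lowest of the stimulated times at 72 h, Il7r and Cd7 are high at 0 and 72 h, and Il12rb2 is highest at 72 h.

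Many of these genes were also called over the same interval in the other 2 cultures. With Ag-B7 alone limma called 367 genes higher (7.41%) and 523 lower (10.6%), and with IFNa/b 131 higher (2.65%) and 208 lower (4.2%). Across the 4950 tested genes the change with IL-12 correlated with that of Ag-B7 alone at r = 0.734 and with that of IFNa/b at r = 0.747, as a description over genes, which are not replicates. The cultures share no arrays, but each 72 h group is a single array of replicate number 1. Of the 478 genes that fell with IL-12, 341 also fell with Ag-B7 alone (71.3%, and 65.2% of the falls with Ag-B7), and 175 fell with IFNa/b (36.6%, and 84.1% of the falls with IFNa/b). Of the 239 that rose, 129 also rose with Ag-B7 alone (54.0% and 35.1%) and 77 with IFNa/b (32.2% and 58.8%). In total 64 genes rose and 166 fell in all 3 cultures, and 0 genes called with IL-12 were called in the opposite direction elsewhere. Ribosome biogenesis genes fell in 22 of 33 cases with IL-12, 24 with Ag-B7 alone and 15 with IFNa/b, with medians of -1.35, -1.11 and -1.02. Replication genes fell in 28, 25 and 5 of 39 cases, with medians of -1.05, -0.85 and -0.45. Mitosis genes fell in 11, 3 and 0 of 33 cases, with medians of -0.60, -0.13 and 0.02. For 31 of 33 mitosis genes the change was lower with IL-12 than with Ag-B7 alone, and for 32 lower than with IFNa/b. Over the 4950 tested genes it was lower for 2554 and 2478. limma called no single difference among the mitosis genes. Srm differed by -2.87, -3.16 and -2.62 in the 3 cultures and Il7r by 2.07, 2.92 and 2.07. Tspan4 differed by -3.10, -1.11 and -1.61.

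Glycolysis genes mostly had a higher change with IL-12 than with Ag-B7 alone. Of 19 tested glycolysis genes 2 rose with IL-12, Aldoc and Pdk1, and none fell, with a median of 0.19 that turned to -0.15 with median centring. With Ag-B7 alone none rose and 9 fell, with a median of -0.83, and with IFNa/b limma called none, with a median of -0.01. The change was higher with IL-12 than with Ag-B7 alone for 16 of the 19, by a median of 0.94, while 48.4% of all tested genes were higher. A test of the difference between the changes called 3 genes of 4950 (0.0606%), all higher with IL-12, and 256 at an unadjusted p under 0.05. Tpi1, triosephosphate isomerase, had 40119 at 72 h and 34271, 47046 and 36909.9 at 48 h with IL-12. With Ag-B7 alone it had 10239 at 72 h, against 32403, 38654, 40426 and 34949 at 48 h. It thus stayed within the 48 h range with IL-12 and lay below it with Ag-B7 alone, and the changes differed by 1.87 ± 0.27 (limma adjusted p = 0.0367). Pgam1, phosphoglycerate mutase, had 25826 at 72 h and 25553, 30506 and 26389 at 48 h with IL-12. With Ag-B7 alone it had 6685, against 19682, 25231, 22922 and 21174, and the changes differed by 1.64 ± 0.25 (limma adjusted p = 0.0367). The third gene was Chchd10, a mitochondrial protein, with 8664 at 72 h, against 5434, 5877 and 6862 at 48 h, with IL-12 and 3117, against 7041, 9205, 7659.9 and 7931, with Ag-B7 alone (1.85 ± 0.28, limma adjusted p = 0.0367). Tpi1 and Pgam1 were named after their values were seen. Same-numbered arrays of Ag-B7 and IL-12 cells at 48 h deviated together, and with the replicate number as a block all 3 calls were lost, with differences of 1.89 for Tpi1, 1.66 for Pgam1 and 1.85 for Chchd10 (limma adjusted p = 0.0754, 0.0927 and 0.0927). The 3 calls were also lost with median centring, with spike-in scaling, with no filter, with no variance trend, with all 20 arrays and without the first or the third replicate at 48 h, with differences of 1.59 to 2.43 there.

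Other genes that moved with IL-12 and lay near or below 0 with Ag-B7 alone did not pass that test. Icam2 differed by -2.05 with IL-12 and 0.12 with Ag-B7 alone, and the difference of -2.17 ± 0.41 had a limma adjusted p of 0.123. Kifc1 differed by -2.51 and -0.26 (-2.25 ± 0.51, limma adjusted p = 0.194), and Gga2 by -2.26 and -0.02 (limma adjusted p = 0.192). Capg differed by 1.56 and 0.05 (limma adjusted p = 0.192), and Ndrg1 by 2.42 and -0.33 (limma adjusted p = 0.474). Gzmb, which was not called with IL-12, fell with Ag-B7 alone (-1.18, limma adjusted p = 0.011), and the difference between the changes was 0.88 ± 0.40 (limma adjusted p = 0.962). Against IFNa/b, limma called 0 of 4950 genes, and 168 had an unadjusted p under 0.05.

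**Figure D5:**
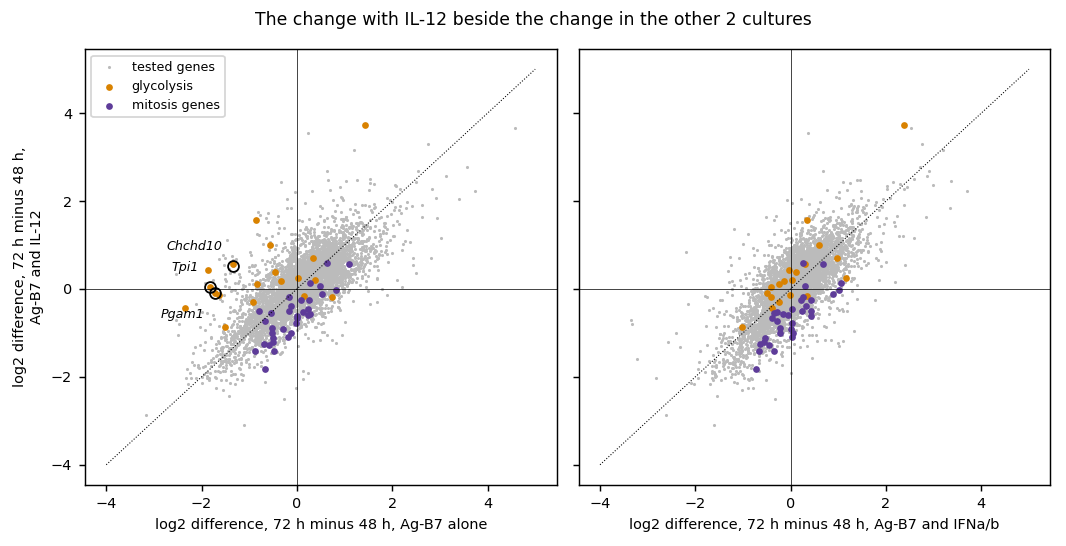
The log2 difference, 72 h minus 48 h, with IL-12 (y axis) against that with Ag-B7 alone (left, x axis) and with IFNa/b (right, x axis), for 4950 tested genes; the dotted line marks equal change. Glycolysis genes (orange) lie mostly above the line on the left, 16 of 19, with Tpi1, Pgam1 and Chchd10 circled, and mitosis genes (purple) lie below it in both panels, for 31 and 32 of 33 genes.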

How the data were processed

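The deposited values are MAS5 intensity values, 1 signal for each of 12488 probe sets per array on a linear scale. The algorithm's name comes from the submitters' processing notes, and the version used is not given in the sources used here. Every array's trimmed mean was near 1001, so total signal had been equalised before deposit.

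Probe sets with 1 gene symbol in the platform annotation (10833) gave 8251 genes, and the brightest probe set stood for a gene. Values were analysed as log2(signal + 46.4), the pseudocount being the median of the arrays' 20th percentiles, which understates changes of dim genes. The upper 60% of genes by mean over the 17 stimulated arrays were tested (4950). limma 3.58.1 (R 4.3.3) fitted group means to these arrays, with an intensity trend in the variance, two-sided tests and Benjamini-Hochberg adjustment. The fit had 7 residual and 5.84 prior degrees of freedom. Replicates are called biological in the labels; the 72 h array is assumed to vary as those at 48 h do, and the number of arrays limits precision.

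Named genes are the 15 largest rises and falls among genes outside the range, at least 2-fold away and brighter than the median gene in the higher group, up to 4 members of each of 25 lists, members of a set of effector and differentiation genes, and genes called for a difference between cultures whose changes lay on opposite sides of their ranges; genes outside this rule are marked in the text. Same-numbered Ag-B7 and IL-12 arrays at 48 h correlated in their deviations (r of 0.33 to 0.46), so these numbers pair them. IFNa/b arrays did not follow by number (r of -0.17 to 0.14). IFNa/b array 1 had r of 0.30 and 0.31 with array 2 of Ag-B7 and of IL-12. IFNa/b array 2 had 0.26 and 0.19 with their array 3, and IFNa/b array 3 had 0.07 and 0.20 with their array 1. IFNa/b array 3 also had 0.11 and 0.14 with their array 3, so its partner was not clear. The replicate block used the given numbers in all cultures, so it may pair the IFNa/b arrays wrongly. Comparison, lists and rules were chosen with earlier results of these data known. Figures were drawn with matplotlib 3.10.9. The limma script was tested on simulated data.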

Additional observations from a re-analysis of the deposited data

Results flagged for a closer look

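The change between 48 h and 72 h differed between IL-12 cells and Ag-B7 cells, by the test of the difference, for 3 genes. The difference, IL-12 minus Ag-B7, was 1.87 for Tpi1, 1.64 for Pgam1 and 1.85 for Chchd10 on the log2 scale. Among the 4 Ag-B7 arrays at 48 h, the highest value of Il7r stood apart, with a gap to the next of 0.863 of the whole range. It was 1 of 12 genes examined in this way, and chance gives about 1 in 20.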

How the results depend on the processing

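Median centring gave 68 limma calls higher, and 163 genes 2-fold above the range and 696 below. Over all named genes, 1813 then lay above the range and 3079 below. Spike-in scaling gave 46 calls higher and 23 lower, and 700 and 208 genes 2-fold above and below. Of all named genes, 906 lay below the range with that scaling. With all 20 arrays limma called 115 higher and 227 lower, and with only the 4 arrays 314 lower. With no filter 698 genes were 2-fold above the range, and with the stricter filter 180. A 1.5-fold minimum gave 1038 above and 820 below, and 2-fold from the nearest 48 h array 160 and 213. Leaving out 1 replicate gave 155 to 224 calls higher and 359 to 446 lower, and 24 to 34 higher among list members. List members called higher numbered 16 with median centring, 10 with spike-in scaling and 22 with all 20 arrays, and those called lower 7 with spike-in scaling and 45 with all 20 arrays. The 3 differences between IL-12 and Ag-B7 changes became 0 under median centring, spike-in scaling, no filter, all 20 arrays and no variance trend, 5 with quantile normalization, and 0 to 2 without 1 replicate. The signs of Mki67 (0.45, mean over probe sets), Pgam1 (0.17, spike-in scaling) and Tpi1 (-0.30, median centring, and -0.055 to -0.0012 without 1 replicate) turned. Median centring turned the medians of glycolysis (-0.15), amino acid supply (-0.19), G1 cyclins (-0.20), survival (-0.07), cytotoxic (-0.13), ribosomal protein (-0.29), class I (-0.04), cholesterol (-0.09) and signal inhibitor genes (-0.11). The 72 h and 48 h groups share only replicate number 1. With a replicate block limma called 360 genes higher and 569 lower, 57 list members higher, 93 lower, and 0 differences between the cultures. Of the 88 named genes that rose or fell, the call was lost for 56 with spike-in scaling, 22 with all 20 arrays, 21 with median centring, 19 with the mean over probe sets, 10 to 23 without 1 replicate, and 0 to 12 under the other alternatives, the replicate block included (0). Causes were not tested. Genes dimmer than the filter have no test.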
